A study of Mus musculus with 9 samples.

Results

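The 50 genes described here act in mitosis: they drive entry into division, build the spindle, attach chromosomes to it, hold the checkpoint, condense and separate chromosomes and divide the cell. They were chosen by name, and all 50 were measured, among 19938 genes in all. Each gene was read by the probe set (the array's group of probes for 1 transcript) that names that gene alone, and where there were several, by the one with the highest mean over the 9 arrays. RNA came from mouse dendritic cells grown in culture from bone marrow progenitors, and each of 3 groups had 3 arrays labelled as biological replicates. The first group was untransduced wild-type (WT) cells left unstimulated. The second was untransduced WT cells given 100 ng/ml LPS, the bacterial lipopolysaccharide sensed by Toll-like receptor 4, for 4 h. The third, called knockdown (KD), was cells transduced with pSir-delta U6CHisD, a retroviral vector with a short hairpin RNA against JmjD2d, and given LPS in the same way. JmjD2d, encoded by Kdm4d, is a demethylase of lysine 9 of histone H3. The progenitors of all 3 groups were given cytokine at 20 ng/ml. All cells were differentiated for 8 days in GM-CSF, with SCF in the first 4 days, and the transduced cells were selected in 2 mM histidinol. No array of a control hairpin or of unstimulated KD cells was analysed here, so the hairpin cannot be told apart from infection and selection.

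Mitosis genes are made in a wave. Their mRNAs are low in resting and early-cycle cells and rise in the second part of the cycle, so that in a mixed culture their level follows the share of cells in late S phase, G2 and mitosis. In resting cells the DREAM complex keeps them off, largely through a promoter letter pattern called the cell cycle genes homology region (CHR). In dividing cells the B-MYB and FOXM1 factors, with NF-Y bound at CCAAT boxes nearby, turn them on. Progenitors in GM-CSF culture divide, and cells stop dividing as they become mature dendritic cells.

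The CHR and the CCAAT box are printed first because they are the promoter feature by which genes of this kind are recognised. RefSeq promoter windows of the GRCm38.p6 build (250 bases before the start of the transcript to 50 after it) were found for 41 of the 50 genes. The CHR letters TTTGAA, searched on both strands, stood in the window of 29 of the 41 (70.7%), against 20.2% of all 27025 genes in the table. CCAAT on either strand stood in 29 of the 41 (70.7%), against 41.1% of all genes, and both patterns stood in 24 (58.5%), against 8.0%. None of the 43 TTTGAA copies in these windows overlapped a CCAAT copy. The rarer form TTCGAA was in 4 of the 41 (9.8%, against 1.8%), and the E2F cores TTGGCGC and GCGGGAA were in 7 (17.1%, against 2.8%) and 3 (7.3%, against 5.3%). In the 250 bases before the start alone, TTTGAA was in 17 of the 41 (41.5%, against 18.3%), so that in 12 genes it lay only after the start or across it. Below are the bases just before the start of 8 genes, 5′ to 3′ in the direction of the gene, with TTTGAA or its reverse complement TTCAAA and CCAAT or its reverse complement ATTGG in capitals. Cdk1, Top2a, Prc1, Ncapg and Kif15 were among the genes higher in KD cells in the paired fit described further on, Mki67 had the largest rise of the 50 after LPS, and Bub3 and Espl1 hold the same letters and had differences close to 0 in both comparisons.
Cdk1: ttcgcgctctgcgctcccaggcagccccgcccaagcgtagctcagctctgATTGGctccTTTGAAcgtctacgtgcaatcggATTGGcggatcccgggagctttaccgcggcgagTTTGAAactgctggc
Top2a: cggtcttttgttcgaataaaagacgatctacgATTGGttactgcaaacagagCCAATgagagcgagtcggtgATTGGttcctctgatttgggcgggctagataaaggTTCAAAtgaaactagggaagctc
Prc1: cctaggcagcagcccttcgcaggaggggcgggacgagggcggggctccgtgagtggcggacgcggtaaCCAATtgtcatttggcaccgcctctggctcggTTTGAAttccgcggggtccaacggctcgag
Ncapg: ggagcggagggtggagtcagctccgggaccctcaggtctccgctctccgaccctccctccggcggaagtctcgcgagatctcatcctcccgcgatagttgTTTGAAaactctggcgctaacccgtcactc
Kif15: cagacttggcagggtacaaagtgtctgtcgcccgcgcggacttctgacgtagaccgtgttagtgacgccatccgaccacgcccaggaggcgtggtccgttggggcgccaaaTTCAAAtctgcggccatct
Mki67: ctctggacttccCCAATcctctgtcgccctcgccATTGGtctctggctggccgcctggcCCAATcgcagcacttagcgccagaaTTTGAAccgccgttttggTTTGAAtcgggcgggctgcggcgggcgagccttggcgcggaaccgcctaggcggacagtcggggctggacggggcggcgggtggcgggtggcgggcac
Bub3: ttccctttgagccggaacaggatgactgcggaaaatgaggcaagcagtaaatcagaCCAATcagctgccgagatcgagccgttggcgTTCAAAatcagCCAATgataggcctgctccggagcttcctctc
Espl1: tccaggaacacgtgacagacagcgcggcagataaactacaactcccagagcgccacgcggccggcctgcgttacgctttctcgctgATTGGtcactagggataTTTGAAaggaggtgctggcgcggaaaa
The stretches are chr10:69352913-69353042 (minus strand) for Cdk1, chr11:99024190-99024319 (minus strand) for Top2a, chr7:80294346-80294475 (plus strand) for Prc1, chr5:45669795-45669924 (plus strand) for Ncapg, chr9:122950951-122951080 (plus strand) for Kif15, chr7:135716380-135716579 (minus strand) for Mki67, chr7:131560240-131560369 (plus strand) for Bub3 and chr15:102296163-102296292 (plus strand) for Espl1. In Cdk1 the CHR copies began 71 and 15 bases before the start, in Top2a 23, in Prc1 and Ncapg 30, in Kif15 19, in Mki67 116 and 98, in Bub3 43 and in Espl1 27. Where a gene had several windows, the one with the most copies in the stretch before the start is shown. In another window the copy of Prc1 began 5 bases and that of Bub3 167 bases before the start. A match is a description of the letters and was not tested as a binding site.

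Values are log2 expression, so that a difference of 1 is 2-fold. Across genes, arrays of the same group had correlations of 0.985 to 0.997, and the medians of the arrays lay between 7.217 and 7.315. Kdm4d, the targeted gene, read 7.24, 7.65 and 7.62 in unstimulated WT cells, 7.79, 7.54 and 7.74 in WT cells after LPS, and 7.43, 7.11 and 7.40 in KD cells. The 3 KD values were below the 3 WT LPS values without overlap, by a log2 difference of -0.37 (SE 0.13, limma adjusted p = 0.278, and 0.235 in the paired fit), so the knockdown itself did not pass the test at the RNA level. Of the dendritic cell markers, Itgax had group means of 12.98, 12.94 and 12.46 and Cd74 of 13.75, 13.76 and 12.72 in unstimulated WT, WT LPS and KD LPS cells. Flt3 (means of 6.53 to 6.76) and Dpp4 (6.27 to 6.38) lay below the array medians in all 3 groups.

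The mitosis genes were highest in KD cells after LPS and also differed between replicates. With each gene centred on its mean over the 9 arrays, their average was 0.34, -0.38 and -0.37 in unstimulated WT replicates 1 to 3, 0.04, -0.32 and -0.42 in WT LPS replicates, and 0.575, 0.291 and 0.248 in KD LPS replicates. Every KD array was thus above every WT LPS array, but unstimulated WT replicate 1 was above KD replicates 2 and 3. Arrays numbered 1 stood above the others of their group: 48 of the 50 genes were highest in array 1 among unstimulated WT arrays, 42 among WT LPS arrays and 39 among KD arrays, where 31.8%, 39.2% and 23.7% of all genes were. Array 1 exceeded the mean of arrays 2 and 3 by a median over the 50 genes of 0.585, 0.375 and 0.308 in the 3 groups. The replicate number therefore carried much of the spread, and a second fit with the number as a block, called the paired fit, is given beside the calls that it changes.

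**Figure D1:**
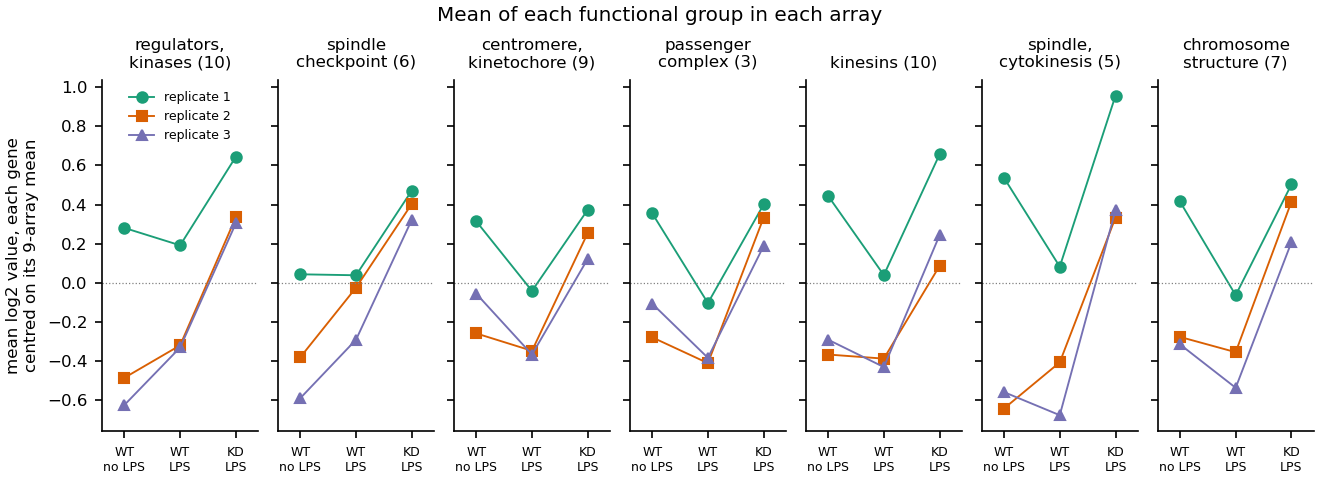
Mean log2 value of each functional group of mitosis genes in each array, every gene centred on its own 9-array mean (vertical axis), by group (horizontal axis: WT without LPS, WT with LPS, KD with LPS); lines join arrays of the same replicate number, and the number of genes is in brackets. In every panel each line rises from WT LPS to KD LPS, and replicate 1 (circles) lies above replicates 2 and 3 in WT cells.

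LPS left most mitosis genes of WT cells, like most of all genes, without a called change at 4 h, and 4 of the 50 passed the test, 2 in each direction. A call is a limma adjusted p under 0.05 over all 19938 genes, and 10.9% of all genes were called in this comparison. Mki67, which encodes the Ki-67 protein that coats mitotic chromosomes and marks dividing cells, and Mad2l1, a core protein of the spindle checkpoint, rose. Cdc25b, the phosphatase that helps start CDK1 at mitotic entry, and Cenpa, the histone H3 variant that marks centromeres, fell. The paired fit called 8 of 50, the same 4 and a further 4 lower, where 14.8% of all genes were called.

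Mki67 read 10.04, 9.01 and 8.49 in unstimulated WT cells and 11.78, 11.24 and 11.59 after LPS. All LPS arrays lay above all unstimulated arrays, with the widest spread among the unstimulated ones. It rose 5.13-fold (log2 difference 2.36, SE 0.34, adjusted p = 0.0048). Mad2l1 read 9.72, 9.38 and 9.26 without LPS and 10.66, 10.51 and 10.79 with it, again with no overlap. It rose 2.29-fold (1.197, SE 0.13, adjusted p = 0.0015). Cdc25b read 9.73, 9.33 and 9.23 without LPS and 8.46, 8.01 and 7.73 with it. Its groups did not overlap and it fell 2.57-fold (-1.36, SE 0.25, adjusted p = 0.0118). Cenpa read 10.92, 9.86 and 10.68 without LPS and 9.60, 8.85 and 9.08 with it. It fell 2.47-fold (-1.31, SE 0.31, adjusted p = 0.0319), and its groups did not overlap. Mki67 and Mad2l1 passed the test whichever single array was left out, whereas 2 members were called, both of them these, without unstimulated WT replicate 1 or without WT LPS replicate 3.

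The remaining 46 members ranged from -0.87 to 0.35. Over all 50, 33 had a negative and 17 a positive difference, where 8036 of all 19938 genes had a negative one. The median of the 50 was -0.13, against 0.04 over all genes. Without unstimulated WT replicate 1 the median was 0.078, and without all arrays numbered 1 it was -0.001. By role, the regulators and mitotic kinases had a median of 0.11, the spindle checkpoint of 0.05, the centromere and kinetochore of -0.13, the chromosomal passenger complex of -0.27, the kinesins of -0.15, spindle assembly and cytokinesis of 0.00, and chromosome structure of -0.29. All 7 members of the last group were negative. The members that only the paired fit called lower were Kif23, a motor of the central spindle (log2 difference -0.87, SE 0.47, adjusted p = 0.275, paired 0.0387), Anln, an actin-binding protein of the cleavage furrow (-0.64, paired 0.0365), and the kinesins Kif22 (-0.35, paired 0.0226) and Kif20b (-0.31, paired 0.039). Over the 19 alternatives the adjusted p of these 4 ranged from 0.000417 to 0.845. Kif23 read 9.29, 7.45 and 8.38 without LPS and 7.95, 7.32 and 7.24 with it, so that replicate 2 differed least and the groups overlapped. Kif20b, which had the smallest p of the kinesins in the 9-array fit, read 6.83, 6.45 and 6.34 against 6.37, 6.24 and 6.09, also with overlap.

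The largest positive difference among the rest was that of Nusap1, a microtubule-bundling protein of the spindle, at 0.35 (SE 0.42, adjusted p = 0.608). Its unstimulated values of 8.47, 6.91 and 6.91 and its LPS values of 8.28, 7.52 and 7.55 overlapped, and it was lower in pair 1. Melk, a mitotic kinase, was higher in all 3 pairs, at 0.31 (SE 0.16, adjusted p = 0.273, paired 0.117). Incenp, the scaffold of the chromosomal passenger complex, read 8.72, 8.52 and 8.62 without LPS and 8.31, 8.48 and 8.27 with it. Its groups did not overlap, with a log2 difference of -0.27 (SE 0.08, adjusted p = 0.0713). Smc4, a condensin ATPase, also had all LPS values (10.15, 10.19 and 10.29) below the unstimulated ones (10.68, 10.34 and 10.48), at -0.29 (SE 0.12, adjusted p = 0.164). Foxm1, the transcription factor of this gene set, was at 0.12 (SE 0.18, adjusted p = 0.701), and Cdk1, the kinase of mitotic entry, at -0.46 (SE 0.19, adjusted p = 0.159). The interval of Foxm1 ran from -0.30 to 0.53, which does not show an absence of change.

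**Figure D2:**
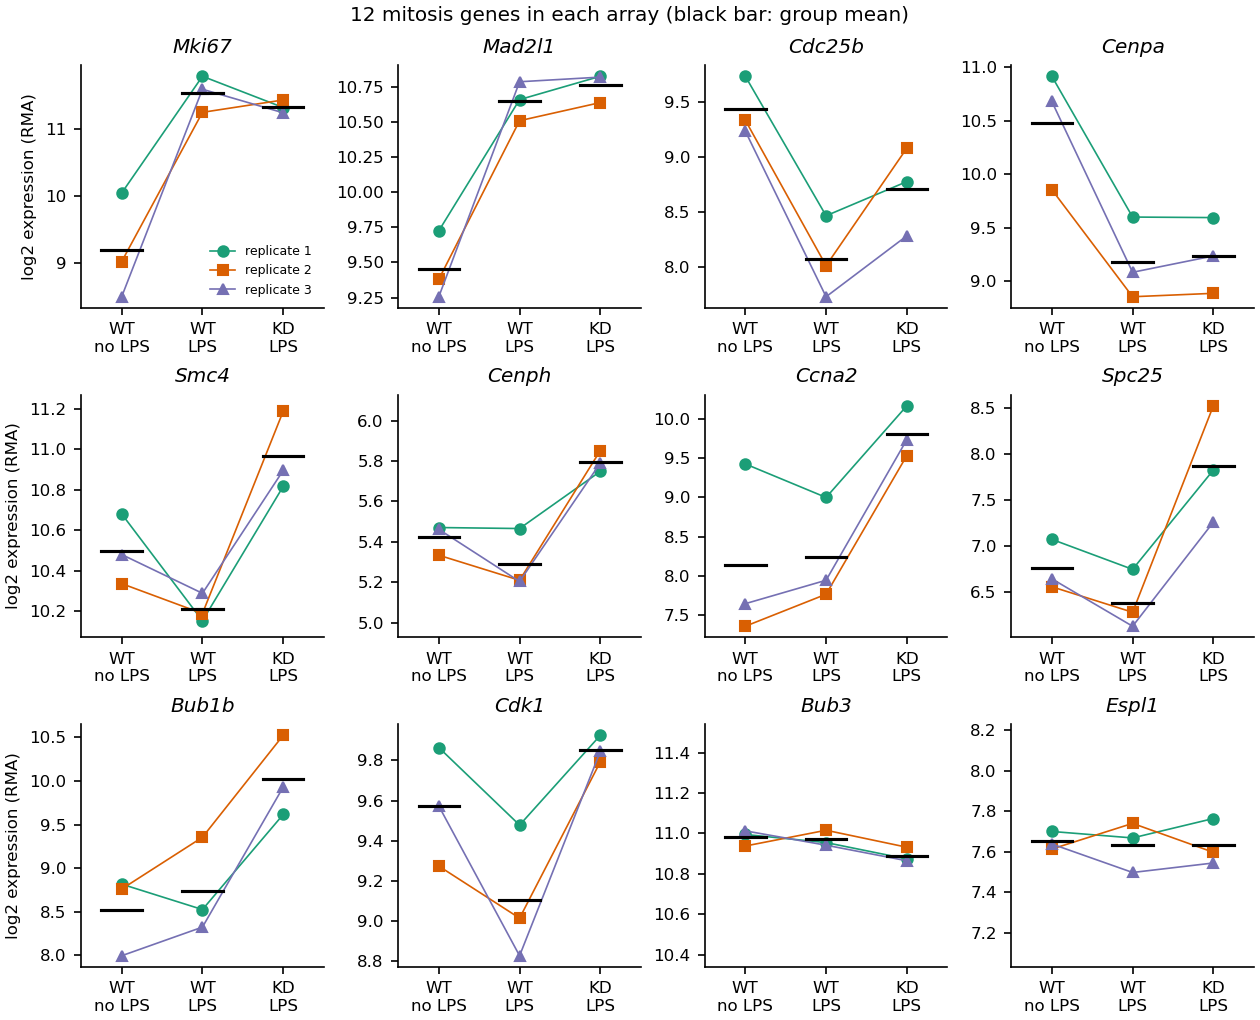
Log2 expression (RMA values, vertical axis; each panel has its own range of at least 1.2) of 12 mitosis genes in every array by group (horizontal axis); lines join arrays of the same replicate number and black bars are group means. Mki67 and Mad2l1 step up and Cdc25b and Cenpa step down with LPS, Smc4, Cenph, Ccna2, Spc25, Bub1b and Cdk1 are higher in KD than in WT cells after LPS in each pair, and Bub3 and Espl1 stay level.

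After LPS, mitosis genes stood higher in KD than in WT cells in 48 of 50 cases, where 40.7% of all genes did, by a median log2 difference of 0.57 against -0.03 over all genes. Few passed the test one by one. In the fit of all 9 arrays 2 of 50 rose, Smc4 and Cenph, a subunit of the inner kinetochore, and none fell (at an unadjusted limma p below 0.05, 28 were higher and 0 lower), and 0.762% of all genes were called. At that unadjusted p, 1459 of all 19938 genes were higher and 1155 lower. The paired fit called 20 of 50 higher and 0 lower, where 2.75% of all genes were called and 1.51% were called higher. Within pairs of the same number, 42 of the 50 were higher in KD cells in all 3 pairs, where 17.8% of all genes were, and the median difference over the 50 was 0.57, 0.48 and 0.60 in pairs 1 to 3. For 30 of the 50 all KD arrays lay above all WT LPS arrays, where 8.21% of all genes did. In bulk RNA a larger share of dividing cells and more of these mRNAs per cell cannot be told apart.

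The number of calls rested on single arrays and replicate numbers, whereas the median difference stayed above 0. With any 1 of the 9 arrays left out, the 9-array fit called 0 or 1 member. The paired fit called 1 member without number 1, 25 without number 2 and 0 without number 3, and without number 3 it called 0 of all 19938 genes. The median over the 50 genes ranged from 0.43 to 0.68 over all alternatives. Some alternatives, among them the block and leaving out an unstimulated array, cannot change these differences. For the 20 members called in the paired fit, the lowest difference was 0.37, and their adjusted p ranged from 0.00396 to 0.704. These 20 were picked as higher in this same comparison, so their lasting direction is no separate support.

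Among the regulators and mitotic kinases, Ccna2, the cyclin of S phase and early mitosis, had the largest difference of the 50. It read 8.999, 7.768 and 7.946 in WT LPS cells and 10.16, 9.53 and 9.73 in KD cells, so that the groups did not overlap. It was 2.98-fold higher (log2 difference 1.57, SE 0.54, adjusted p = 0.255, paired 0.0343). Ccnb2, a B-type mitotic cyclin, read 9.10, 8.21 and 8.06 against 9.80, 9.40 and 9.43 in KD cells (1.09, SE 0.40, adjusted p = 0.298, paired 0.0412). Cdk1, their partner, read 9.48, 9.02 and 8.83 against 9.93, 9.79 and 9.85 (0.75, SE 0.19, adjusted p = 0.121, paired 0.0369). In KD cells Cdk1 was nearly equal in the 3 arrays, and its groups did not overlap. The other members of this role that were positive ranged from 0.29 for Melk to 0.64 for Cdc25b, which in KD cells read 8.77, 9.08 and 8.28 and overlapped WT LPS cells. Plk1, the polo kinase, was at 0.62 (SE 0.40, adjusted p = 0.565) and Foxm1 at 0.36 (SE 0.18, adjusted p = 0.454). Mki67 was an exception, at -0.21 (SE 0.34, adjusted p = 0.827), with KD values of 11.32, 11.43 and 11.24 that overlapped the WT LPS values. Its 95% confidence interval was -0.99 to 0.57.

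In the spindle checkpoint, Bub1b, which encodes the BubR1 inhibitor of the anaphase-promoting complex, read 8.53, 9.35 and 8.32 in WT LPS cells and 9.62, 10.52 and 9.93 in KD cells. The groups did not overlap and the gene was 2.44-fold higher (1.29, SE 0.34, adjusted p = 0.142, paired 0.0354). Its kinase relative Bub1 read 7.694, 7.183 and 6.368 against 8.397, 8.360 and 7.694, a difference of 0.70, 1.18 and 1.33 in the 3 pairs between groups that overlapped (1.07, SE 0.48, adjusted p = 0.394, paired 0.0642). Ttk, the MPS1 kinase, was at 0.29 and Cdc20, the activator of the anaphase-promoting complex, at 0.27. Mad2l1, which LPS raised in WT cells, was at 0.11 in the KD comparison (adjusted p = 0.760). Bub3, the binding partner of Bub1 and Bub1b, read 10.96, 11.02 and 10.94 in WT LPS cells and 10.87, 10.93 and 10.87 in KD cells. It was the other negative member, at -0.08 (SE 0.05, adjusted p = 0.572, 95% confidence interval -0.20 to 0.04).

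At the centromere and kinetochore all 9 members were positive. Cenph rose from 5.47, 5.21 and 5.20 in WT LPS cells to 5.75, 5.85 and 5.79 in KD cells, a log2 difference of 0.50 (SE 0.08, 1.42-fold, adjusted p = 0.0421, paired 0.0391) between groups that did not overlap. Its values lay well below the array medians, and its call was lost in 13 of the 18 alternatives that measured it (adjusted p from 0.0244 to 0.486). Spc25, a subunit of the NDC80 complex that grips microtubules, read 6.75, 6.28 and 6.13 against 7.83, 8.52 and 7.26, with KD replicate 2 highest. It was 2.80-fold higher (1.48, SE 0.31, adjusted p = 0.0778, paired 0.0411). The 3 other subunits of the same complex differed in size: Nuf2 was at 0.68 (SE 0.22, paired adjusted p = 0.0231), Ndc80 at 0.18 (SE 0.17, paired 0.526) and Spc24 at 0.18 (SE 0.09, paired 0.466). Cenpe, the kinetochore motor, was at 0.86 (SE 0.31, paired 0.0564) and Cenpk at 0.49 (paired 0.196), whereas Cenpf was at 0.08. Cenpa, which LPS lowered in WT cells, read 9.59, 8.88 and 9.23 in KD cells and differed from WT LPS cells by 0.06 (SE 0.31, adjusted p = 0.949).

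The chromosomal passenger complex places the Aurora B kinase on chromosomes, and its 3 members were positive in all 3 pairs without overlap of the groups. Aurkb, the kinase, read 9.02, 8.46 and 8.44 in WT LPS cells and 9.58, 9.74 and 9.41 in KD cells (0.94, SE 0.26, adjusted p = 0.152, paired 0.0662). Birc5, or survivin, was at 0.57 (SE 0.20, paired 0.0442) and Incenp, with KD values of 8.73, 8.65 and 8.61, at 0.31 (SE 0.08, adjusted p = 0.134, paired 0.12). Incenp in KD cells was at the level of unstimulated WT cells, with a difference of 0.04 (SE 0.08).

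All 10 kinesins, the motors that move along microtubules, were positive, and the paired fit called 5 of them: Kif4 (0.83, SE 0.29, paired 0.0128), Kif20a (0.79, SE 0.34, paired 0.0437), Kif15 (0.63, SE 0.24, paired 0.0181), Kif2c (0.56, SE 0.17, paired 0.032) and Kif22 (0.45, SE 0.16, paired 0.0301). Kif2c, which takes microtubules apart at centromeres, read 7.06, 6.78 and 6.77 in WT LPS cells and 7.63, 7.26 and 7.39 in KD cells, without overlap (adjusted p = 0.199). Kif11, the motor that pushes spindle poles apart, had the largest difference of the family, at 1.04 (SE 0.49, adjusted p = 0.424, paired 0.0784). It read 7.96, 7.12 and 7.06 against 8.84, 8.14 and 8.28, and its groups did not overlap. Kif23 was at 0.69 (SE 0.47), Kif20b at 0.38, Kif14 at 0.35 and Kif18a at 0.16. A dimmer second probe set of Kif14 read 0.02.

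Among the genes of spindle assembly and cytokinesis, Nusap1 read 8.28, 7.52 and 7.55 in WT LPS cells and 9.28, 8.94 and 8.71 in KD cells, with no overlap (1.19, SE 0.42, adjusted p = 0.269, paired 0.0442). Prc1, which crosslinks the microtubules of the central spindle, read 7.69, 7.14 and 6.82 against 8.63, 8.22 and 8.19, also with no overlap. It was 2.19-fold higher (1.13, SE 0.35, adjusted p = 0.201, paired 0.0238). Anln read 7.32, 6.46 and 6.25 against 8.13, 7.36 and 7.43 (0.97, SE 0.43, paired 0.0299). Ect2, the exchange factor that starts the cleavage furrow, was at 0.70 and Tpx2, the activator of Aurora A, at 0.45 (paired adjusted p of 0.0977 and 0.14).

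Smc4 gave the clearest call among the genes of chromosome structure, reading 10.15, 10.19 and 10.29 in WT LPS cells and 10.82, 11.19 and 10.90 in KD cells. It rose 1.69-fold (0.76, SE 0.12, adjusted p = 0.0366, paired 0.0399), and all KD values also lay above the 3 unstimulated ones. Its call was lost in 9 of the 19 alternatives (adjusted p from 0.0242 to 0.391). Smc4 is the ATPase that pairs with Smc2 in condensin, and the other condensin subunits were Ncaph at 1.14 (SE 0.30, paired 0.0238), Ncapg at 0.90 (SE 0.26, paired 0.0422), Smc2 at 0.53 (SE 0.24, paired 0.155) and Ncapd2 at 0.42 (SE 0.17, paired 0.0813). Ncaph read 7.69, 7.05 and 6.81 against 8.46, 8.39 and 8.13, without overlap. Top2a, the topoisomerase that untangles sister chromosomes, read 8.60, 7.70 and 7.45 against 9.37, 8.88 and 8.82 (1.11, SE 0.42, adjusted p = 0.312, paired 0.029), and a second, much dimmer probe set read 0.31. Espl1, the separase protease, read 7.67, 7.74 and 7.50 against 7.76, 7.60 and 7.54, a difference of 0.00 (SE 0.08, 95% confidence interval -0.19 to 0.19).

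**Figure D3:**
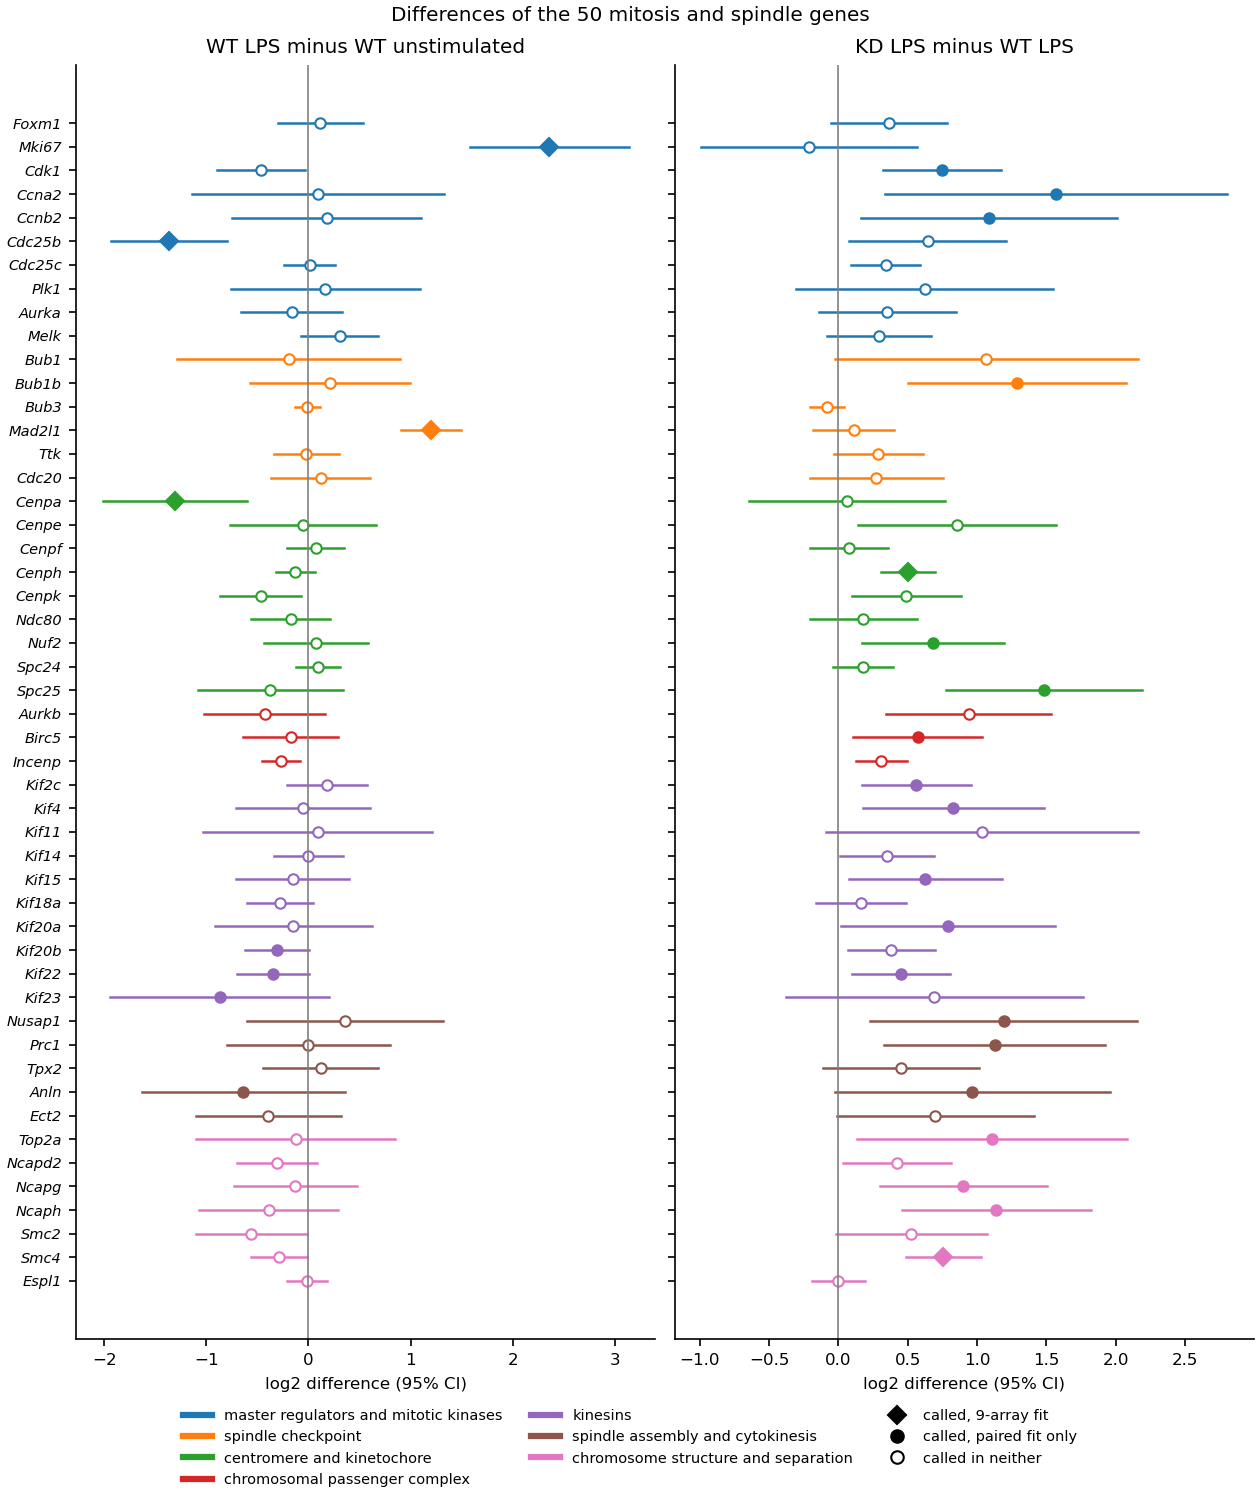
Log2 difference of each of the 50 mitosis genes with its 95% confidence interval from the 9-array fit (horizontal axis), WT LPS minus WT unstimulated at left and KD LPS minus WT LPS at right, coloured by role; diamonds passed the 9-array fit, filled circles the paired fit only, and open circles neither. At left 33 of the 50 points lie below 0 and Mki67 stands alone at 2.36, and at right 48 lie above 0.

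KD cells after LPS were also set against unstimulated WT cells, a contrast that joins LPS and the knockdown and does not measure a response within KD cells. It shares the KD arrays with the second comparison and the unstimulated arrays with the first. In it 6 of 50 members rose and 1 fell in the 9-array fit, where 10.9% of all genes were called, and the paired fit called 25 higher and 2 lower, where 14.3% of all genes were called. Those that rose were Mki67 (2.15, SE 0.34, adjusted p = 0.0063), Bub1b (1.497, SE 0.34, adjusted p = 0.0278), Mad2l1 (1.31, SE 0.13, adjusted p = 0.0009), Kif2c (0.74, SE 0.17, adjusted p = 0.0288), Cenph (0.37, SE 0.08, adjusted p = 0.026) and Smc4 (0.47, SE 0.12, adjusted p = 0.0398). The paired fit did not call Smc4 (adjusted p = 0.0622), and its call was lost in 13 of 19 alternatives (adjusted p from 0.0345 to 0.342). Cenpa fell by 1.25 on the log2 scale (SE 0.31, adjusted p = 0.0375). The count of called members ranged from 2 without unstimulated WT replicate 3 to 13 without unstimulated WT replicate 1, the array in which these genes were high. The group mean was highest in KD cells for 42 of the 50 members, the exceptions being Mki67, Cdc25b, Bub3, Cenpa, Kif18a, Kif23, Smc2 and Espl1. For 11 members (Ccna2, Ccnb2, Cdc25c, Bub1b, Cenph, Nuf2, Spc25, Kif2c, Nusap1, Prc1 and Smc4) all 3 KD arrays lay above all 6 WT arrays, where 3.28% of all genes did.

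Members with a larger excess in unstimulated WT replicate 1 tended to have larger differences in KD cells. For each gene, the excess of unstimulated WT replicate 1 over the mean of replicates 2 and 3 was set against the difference between KD and WT cells after LPS, which uses none of those arrays. Across the 50 genes, all read on the same arrays and so not independent replicates, the values correlated with r = 0.62 (rho = 0.63), where across all 19938 genes r was -0.01 (rho = 0.14). Ccna2, Kif11 and Nusap1 were high on both measures and Bub3 and Espl1 near 0 on both. Mki67, with a replicate 1 excess of 1.29 and a KD difference of -0.21, lay apart, and Spc25 and Bub1b had larger KD differences than genes of a like excess. Among the 41 members with a promoter window, the median KD difference was 0.56 in the 29 with TTTGAA in it and 0.61 in the 12 without. Of the members without TTTGAA, Bub1 and Cdc25b held the rarer form TTCGAA. Cenph had no TTTGAA in its window, and its CCAAT copy lay after the start. A link between these letters and the KD difference was not tested.

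**Figure D4:**
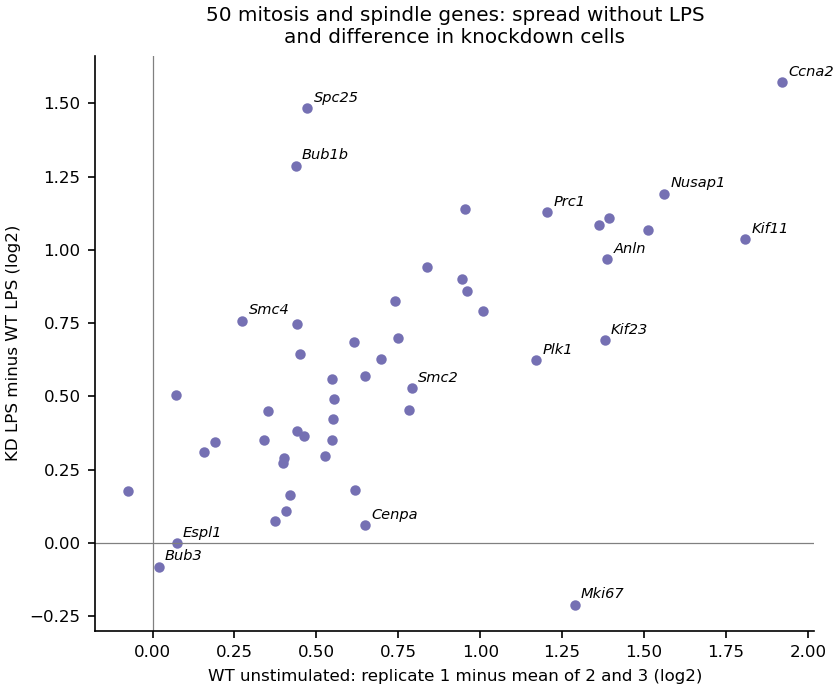
Each point is 1 of the 50 mitosis genes: excess of unstimulated WT replicate 1 over the mean of replicates 2 and 3 (horizontal axis, log2) against KD LPS minus WT LPS (vertical axis, log2). The points rise together (r = 0.62), with Mki67 far below and Spc25 and Bub1b above the genes of a like replicate 1 excess.

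Of 60 further measured mitotic genes, 53 had a positive KD difference, with a median of 0.35. The 9-array fit called 0 of them (at an unadjusted limma p below 0.05, 25 were higher and 0 lower, against 1459 and 1155 of all 19938 genes). The paired fit called 1.51% of all genes higher, and 15 of these 60, all of them higher. They included Cks2, a CDK-binding subunit (1.08, SE 0.24, adjusted p = 0.0948, paired 0.0241), Cenpn, a reader of centromeric chromatin (0.78, SE 0.17, adjusted p = 0.0811, paired 0.0128), and Cdca8, the borealin subunit of the passenger complex (0.70, SE 0.15, adjusted p = 0.0870, paired 0.022). After LPS in WT cells 1 of the 60 rose, Cenpt (0.52, SE 0.13, adjusted p = 0.0433), and 4 fell, Cenpo (-0.75), Cenpu (-0.41), Zw10 (-0.47) and Ncapd3 (-0.94), with adjusted p from 0.0104 to 0.0423 and a list median of -0.15, where 10.9% of all genes were called. The paired fit called 2 higher and 11 lower there, where it called 14.8% of all genes.

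DNA replication genes, which are made earlier in the cycle, had a median KD difference of 0.21 over 39 measured genes. None was called in the 9-array fit (unadjusted limma p below 0.05 in 10 higher and 1 lower), and the paired fit called 2, the ribonucleotide reductase subunits Rrm1 (1.17, SE 0.24, adjusted p = 0.0729, paired 0.0123) and Rrm2 (1.27, SE 0.35, adjusted p = 0.152, paired 0.0426). After LPS in WT cells their median was -0.295, with 5 of 39 called lower, among them Pole2, a subunit of DNA polymerase epsilon (-1.49, SE 0.22, adjusted p = 0.0057), and 1 higher, Tyms, the enzyme that makes thymidylate (0.95, SE 0.15, adjusted p = 0.0078). The paired fit called 9 lower and 2 higher. The 16 G1 cyclins, E2F factors and Myc had a median KD difference of 0.13, and the 9-array and paired fits called 0 (unadjusted limma p below 0.05 in 5 higher and 0 lower). After LPS 3 of these 16 fell, the F-box protein Skp2 (-0.64), E2f2 (-0.74) and the D-type cyclin Ccnd3 (-0.51), and the paired fit called 5 lower. The list of CDK inhibitors and DREAM subunits also held Rb1, Fzr1, Btg1 and Btg2. Of its 19 genes 18 were measured, and the CDK inhibitor Cdkn1a was not. These 18 genes had a median KD difference of -0.10 and 0 calls in both fits (unadjusted limma p below 0.05 in 2 higher and 2 lower). After LPS only E2f5 was called, higher (0.77, SE 0.17, adjusted p = 0.0266). The 20 genes of the cohesin ring and the anaphase-promoting complex, which are needed in mitosis, had a median KD difference of 0.01, with 0 called (unadjusted limma p below 0.05 in 3 higher and 1 lower) and Cdc16 called in the paired fit (0.47, adjusted p = 0.0730, paired 0.0407). After LPS 3 of these 20 fell, Smc3 (-0.77), Smc1a (-0.45) and Cdc23 (-0.54), and Cdc27 rose (0.30), and the paired fit called 5 lower and 1 higher. Of all 19938 genes, the 9-array fit called 1368 lower and 796 higher after LPS, and the paired fit 1908 lower and 1035 higher. In the KD comparison the 2 fits called 0.762% and 2.75% of all genes, and 1459 genes were higher and 1155 lower at an unadjusted limma p below 0.05.

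**Figure D5:**
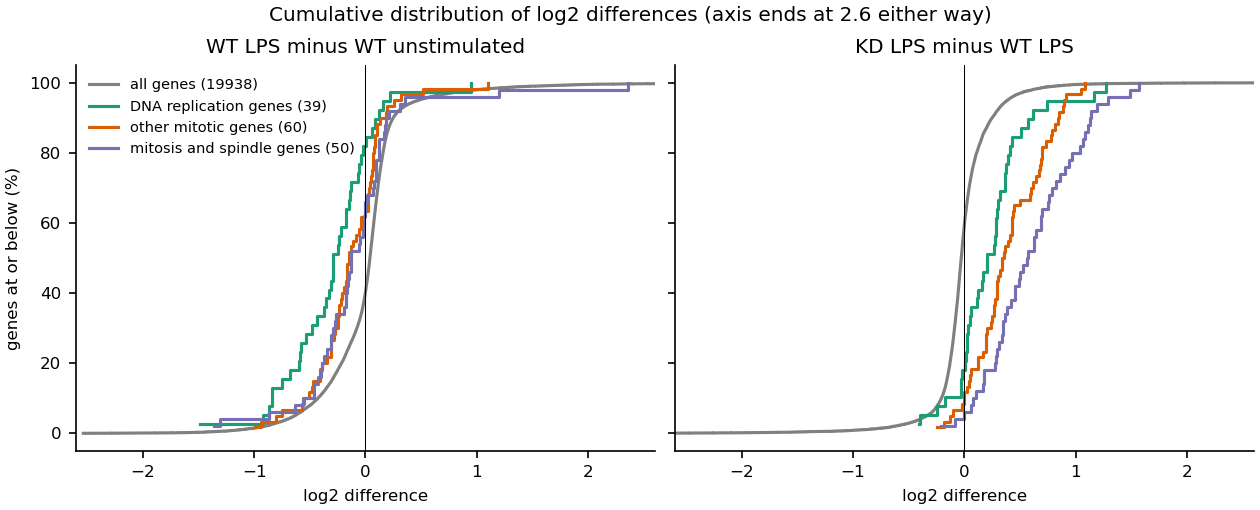
Cumulative share of genes (vertical axis, percent) at or below each log2 difference (horizontal axis) for all genes, 39 DNA replication genes, 60 other mitotic genes and the 50 mitosis and spindle genes, WT LPS minus WT unstimulated at left and KD LPS minus WT LPS at right. At right the medians are -0.03, 0.21, 0.35 and 0.57 in that order, and at left 0.04, -0.295, -0.15 and -0.13.

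Marker genes of other cell types were read beside the KD result. Of all 19938 genes, 11829 were lower in KD cells, 1155 of them at an unadjusted limma p below 0.05, and the paired fit called 247 lower. Dendritic cell markers were lower in KD cells in 11 of 11 genes, with a mean level of 8.49 to 9.45 per KD array against 9.43 to 10.35 per WT LPS array and 9.32 to 10.33 per unstimulated WT array. Limma called 0 of the 11 (6 lower at an unadjusted p under 0.05), and the paired fit called 5 lower. Hematopoietic progenitor markers had a mean level of 7.87 to 7.99 in KD arrays and 8.07 to 8.33 in WT LPS arrays, 7 of 10 were lower, limma called 0 (2 lower at an unadjusted p below 0.05), and Kit, the SCF receptor, was at -1.73 (adjusted p = 0.0729, paired 0.017). Neutrophil precursor markers (8 of 11 lower, 7.54 to 9.59 against 8.71 to 10.21) and mast cell and basophil markers (8 of 10 lower, 6.26 to 6.56 against 6.83 to 7.18) were also lower by sign, with 0 called by limma in either (3 and 4 lower at an unadjusted p below 0.05). The paired fit called 1 neutrophil precursor marker lower, Mpo (-1.74, paired 0.032), and 2 mast cell and basophil markers, Cpa3 (-1.88, paired 0.0164) and Gata2 (-0.87, paired 0.0306), of which Gata2 was also 1 of the 2 progenitor markers it called lower, beside Kit. Macrophage markers had a mean of 10.35 to 10.61 in KD and 10.31 to 10.60 in WT LPS arrays, and 5 of 9 were lower. Spic rose (2.74, adjusted p = 0.0384) and no other was called, with 2 higher, Spic included, and 2 lower at an unadjusted p below 0.05. Those lower were Csf1r (-0.65, adjusted p = 0.0783) and Cx3cr1 (-1.02, adjusted p = 0.102). Lymphocyte markers lay at 5.91 to 6.003 and 5.95 to 6.08, and erythroid markers at 7.58 to 7.67 and 7.51 to 7.74, in KD and WT LPS arrays, with 0 called by limma in either (1 and 0 lower at an unadjusted p below 0.05). No marker reads 0 on this scale. The part of these differences in the result on mitosis genes was not tested.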

How the data were processed

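Gene expression was measured on 9 mouse Affymetrix gene arrays. The deposited values are log2 expression that the authors made with RMA (a robust multi-array average, with 1 value per probe set). RMA is named in the submitters' processing notes, and its version is not given in the sources used here. Of 35556 probe sets, 21789 named 1 gene, and symbols were matched through Entrez identifiers to the RefSeq table of GRCm38.p6 for 21698 of them. Each of 19938 genes was read by its brightest single-gene probe set. limma 3.58.1 (R 4.3.3) fitted a mean per group to all 9 arrays (6 residual degrees of freedom, prior 2.31) with two-sided moderated tests and Benjamini-Hochberg adjustment over all genes. The fit was also run on simulated data with independent noise in each array. Those data held no effect of the replicate number, so the run does not cover that part of the spread. Errors are standard errors. The number of arrays limits the precision.

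Same-numbered arrays deviated together in all 9 pairs of arrays (r of 0.14 to 0.48 across genes, against -0.41 to 0.25 in the 18 pairs of different numbers). Deviations were taken from each group mean and sum to 0 within the group, so these ranges are not independent of each other. From these same data the number was taken to pair the arrays, and the paired fit has it as a block. The labels number the biological replicates but do not tie a number to 1 culture. Genes shown array by array are those called in any comparison and, in the first 2, the smallest p of each role and the 3 extremes in each direction; Ccnb2, Bub1, Aurkb, Kif11, Ncaph and Top2a were added after their values were seen. In the other pathway lists they are called genes or those of smallest p. The members and lists were chosen with earlier results of these data known. Alternatives were another probe choice, a filter, centring, another prior, fewer groups, the block and left-out arrays.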

Additional observations from a re-analysis of the deposited data

How the results depend on the processing

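The median differences of the mitosis genes moved by less than the spread between replicates under all alternatives: from -0.259 to 0.078 for LPS in WT cells (above 0 only without unstimulated WT replicate 1), 0.428 to 0.676 for KD against WT cells after LPS and 0.306 to 0.625 for KD LPS against unstimulated WT cells. Some alternatives could not move these medians. The block on all arrays, the other prior and the fit of only the 2 groups leave them unchanged. A left-out array moves only the comparisons that use its group. Counts of calls depended on the arrays, and 3 arrays a group limit them. Leaving out all arrays numbered 1, and leaving out 1 number in the paired fit, were chosen after seeing the data.

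For LPS in WT cells, the 4 called members became 8 with the replicate block, 0 when arrays numbered 1 were left out, 2, 16 and 0 in the block fit without number 1, 2 or 3, and 2 to 4 with 1 array left out. The 2164 genes called became 12 when arrays numbered 1 were left out, 113, 5559 and 65 in the block fit without number 1, 2 or 3, and 891 to 3424 with 1 array left out. The 5 other mitotic genes became 13 with the block, 2 with median centring and with only the 2 groups, 0 when arrays numbered 1 were left out, 0, 19 and 0 in the block fit without number 1, 2 or 3, and 0 to 7 with 1 array left out.

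For KD against WT cells after LPS, the 2 called members became 20 with the block, 1 without genes under a mean log2 of 6, 0 with only the 2 groups, 0 when arrays numbered 1 were left out, 1, 25 and 0 in the block fit without number 1, 2 or 3, and 0 to 1 with 1 array left out. The 152 genes became 548, 33 with only the 2 groups, 7 when arrays numbered 1 were left out, 26, 1452 and 0 in the block fit without number 1, 2 or 3, and 18 (without WT LPS replicate 3) to 383 (without WT LPS replicate 2) with 1 array left out. The 0 other mitotic genes (25 at an unadjusted p under 0.05, limma) became 15 with the block, and 0, 20 and 0 in it without number 1, 2 or 3.

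For KD LPS against unstimulated WT cells, the 7 called members became 27 with the block, 4 with only the 2 groups, 15, 25 and 1 in the block fit without number 1, 2 or 3, and 2 to 13 with 1 array left out. The 2166 genes became 296 when arrays numbered 1 were left out, 498, 4366 and 153 in the block fit without number 1, 2 or 3, and 1054 to 2602 with 1 array left out. The 4 other mitotic genes became 24 with the block, 8, 26 and 1 in it without number 1, 2 or 3, and 0 to 9 with 1 array left out. Fits without arrays have fewer degrees of freedom, and the cause of the other shifts was not tested. Searching only the bases before the start lowered the share of members with TTTGAA from 70.7% to 41.5%. No called member changed sign in any alternative.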
